A study of Schizosaccharomyces pombe with 2 samples.

Results

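The genes prs5 (SPBC3D6.06c), rib4 (SPBC409.13) and cts1 (SPAC10F6.03c) encode enzymes of nucleotide and riboflavin synthesis in the fission yeast Schizosaccharomyces pombe, and each carries 1 long intron in its coding sequence. They are 3 of 1144 genes counted by multiplexed primer extension sequencing (MPE-seq), a targeted form of RNA sequencing which primes reverse transcription close to the introns of a chosen set of genes. The members were chosen by their gene names, their high counts, their long introns and their contrasting unspliced percentages, so the levels and the differences among these genes are described and not tested. Both libraries, replicate A and replicate B, came from the Bioneer wild-type strain in log phase in YES, a rich medium, grown at 30 °C per the labels, and there was no second condition. Whether they came from separate cultures is not stated, so p-values here reflect how 2 libraries differ, possibly for technical reasons alone.

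Prs5 is a ribose-phosphate pyrophosphokinase, which makes phosphoribosyl pyrophosphate, the activated sugar used to build purine, pyrimidine, histidine, tryptophan and nicotinamide nucleotides. Cts1 is CTP synthase, which converts UTP into CTP for RNA, DNA and phospholipid synthesis. Rib4 is lumazine synthase, which makes the direct precursor of riboflavin, the vitamin from which FMN and FAD are formed. An intron is removed by the spliceosome, which recognises the 5′ splice site, a branch site near the 3′ end of the intron and the 3′ splice site. A transcript that keeps an intron with a stop codon in its reading frame cannot give the full-length protein.

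The sequences at both ends of the introns are shown because the splice sites and branch-site motifs are what the 3 introns can be compared by. They were read from the RefSeq genome and annotation of assembly ASM294v3, matched on the gene names, in the direction of the transcript. The deposited counts hold no coordinates and name no build. Each first window holds 10 bases of exon and then 40 bases of intron, with the first 6 intron bases in capitals. The windows are chrII:1281203-1281252 on the minus strand (prs5), chrII:1165513-1165562 on the plus strand (rib4) and chrI:1212165-1212214 on the minus strand (cts1).
prs5 5′ end: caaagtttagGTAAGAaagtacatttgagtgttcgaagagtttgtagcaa
rib4 5′ end: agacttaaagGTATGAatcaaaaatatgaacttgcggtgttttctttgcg
cts1 5′ end: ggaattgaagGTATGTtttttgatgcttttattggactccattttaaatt

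Each second window holds the last 60 bases of the intron and then 10 bases of exon, with the branch-site-like motif and the last 3 intron bases in capitals. The windows are chrII:1280811-1280880 on the minus strand (prs5), chrII:1165750-1165819 on the plus strand (rib4) and chrI:1211975-1212044 on the minus strand (cts1).
prs5 3′ end: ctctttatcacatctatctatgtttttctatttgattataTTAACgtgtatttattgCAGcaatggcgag
rib4 3′ end: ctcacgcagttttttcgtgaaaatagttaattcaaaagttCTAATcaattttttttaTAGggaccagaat
cts1 3′ end: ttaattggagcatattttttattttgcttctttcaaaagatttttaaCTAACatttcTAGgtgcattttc

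The 3 introns were long for this organism. The prs5 intron spanned 422 nt (chrII:1280821-1281242), the rib4 intron 287 nt (chrII:1165523-1165809) and the cts1 intron 220 nt (chrI:1211985-1212204), against a median of 67 nt over the 1003 genes with 1 RefSeq intron in coding sequence. Of those introns, 98.2% were shorter than that of prs5, 93.9% than that of rib4 and 89.7% than that of cts1. Their GC contents of 31.5% in prs5, 27.5% in rib4 and 28.2% in cts1 lay around the median of 29.0%.

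The splice sites differed among the 3 genes. The cts1 intron began with GTATGT, as did 24.2% of the coding introns, whereas GTAAGA in prs5 was shared by 6.28% and GTATGA in rib4 by 3.89%. At the 3′ end, cts1 and rib4 ended in TAG, as did 77.9% of the coding introns. The prs5 intron ended in CAG, as did 14.3%. The last 60 bases were searched on the transcript's strand for the pentamers CTAAC and CTAAT and CTGAC and CTGAT. The cts1 intron held CTAAC with 8 bases after it and the rib4 intron CTAAT with 15 bases after it, against a median of 10 bases (quartiles 9 and 13) over the 797 introns (79.5%) that held at least 1 of them. The prs5 intron held none of these pentamers, like 20.5% of the introns. It did hold TTAAC with 15 bases after it, and 17.3% of the introns likewise had TTAAC or TTAAT but none of the 4 pentamers. In cts1 a TTAAC overlaps the CTAAC, and rib4 has a TTAAT with 29 bases after it. These matches describe the letters in the windows and show no site of binding.

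The introns sat at different places in the genes. In prs5 the intron followed 107 of 1026 coding bases, after residue 35 of a protein of 341 residues. In rib4 it followed 42 of 480 coding bases, after residue 14 of 159. In cts1 it came late, after 1264 of 1803 coding bases and residue 421 of 600. Read through without splicing, each frame met its first stop codon inside the intron, as did those of 915 of the 1003 genes with a coding intron. That stop codon began at intron base 2 in prs5, at base 4 in rib4 and at base 72 in cts1. The stop codons of prs5 and rib4 thus lay within the capitals of the 5′ windows above. An unspliced transcript would encode 36 residues for prs5, 15 for rib4 and 445 for cts1.

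The 3 also differed in annotated genes on the opposite strand, which overlapped 59.4% of the 1003 coding introns. The intron of rib4 lay wholly inside SPNCRNA.5047, a long noncoding RNA on the other strand that overlapped its 287 bases. In prs5, SPNCRNA.5110 overlapped 82 bases at the 3′ end of the intron and SPNCRNA.5111 overlapped 50 bases at its 5′ end. No annotated gene overlapped cts1. The gene ends of prs5 and rib4 also overlapped protein-coding neighbours on the other strand, ptp4 by 48 bases and mrps17 by 210 bases, outside the introns. The strand setting of the counts is not given in the sources used here. Whether any reads of these noncoding RNAs entered the premature counts of prs5 and rib4 was not tested.

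**Figure D1:**
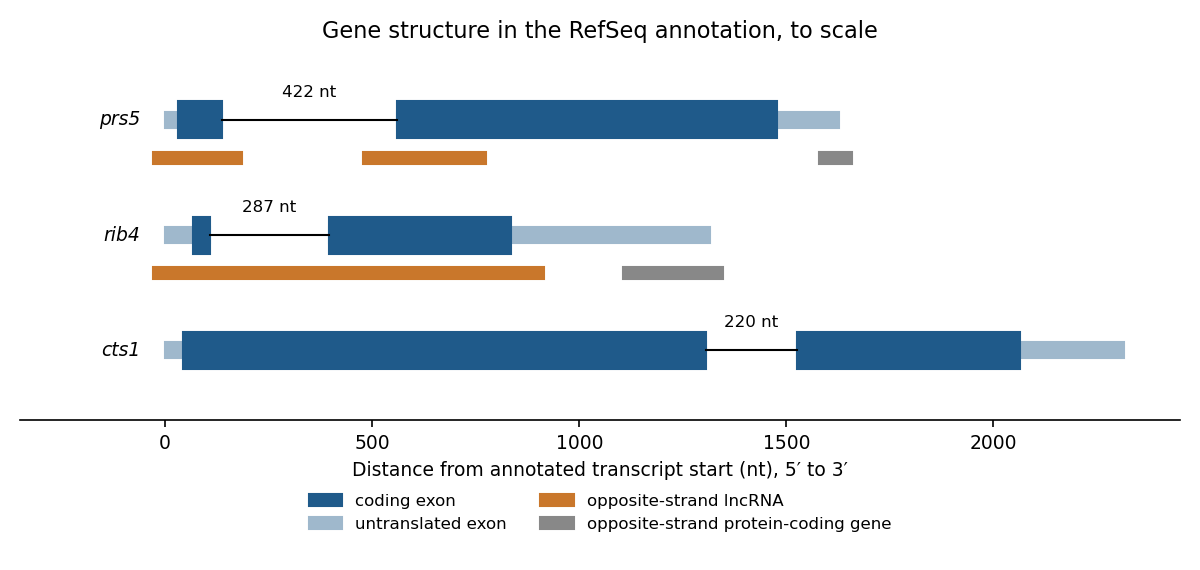
RefSeq gene structures of prs5, rib4 and cts1 drawn to scale, with distance from the annotated transcript start in nucleotides on the x axis and the gene's own direction running left to right. The introns of 422 nt in prs5 and 287 nt in rib4 lie near the start, the 220 nt intron of cts1 lies late, and orange bars show noncoding RNAs on the opposite strand, cut off 30 nt beyond the gene ends.

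The 3 genes spanned a wide range of splicing. The unspliced percentage is the premature count of a gene divided by the sum of its mature and premature counts, taking mature reads to be spliced and premature reads to be unspliced, as the class names imply. About as many prs5 transcripts were counted unspliced as spliced, whereas rib4 was mostly spliced and cts1 almost fully spliced. The order prs5, rib4, cts1 held in replicate B and in replicate A. Each value of 1 library is followed by its 95% Wilson interval, which covers counting error only, since PCR reads without molecular identifiers are not independent molecules and the use of such identifiers is not stated.

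For prs5, 625 premature and 695 mature counts gave 47.3% unspliced in replicate B (44.7 to 50.05), and 443 premature and 339 mature counts gave 56.6% in replicate A (53.2 to 60.1). The intervals did not overlap, and the mean was 52.0% ± 6.58 (SD, n = 2). Premature reads outnumbered mature reads in replicate A and not in replicate B. Of the 864 genes with at least 50 mature and premature counts in each library, 90.7% had a lower mean unspliced percentage than prs5.

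For rib4, 48 premature and 903 mature counts gave 5.05% in replicate B (3.83 to 6.63), and 51 premature and 447 mature counts gave 10.2% in replicate A (7.88 to 13.2). Here too the intervals did not overlap, and the premature count was slightly smaller in the deeper library. The mean of 7.64% ± 3.67 (SD, n = 2) lay at the middle of the 864 genes, whose median was 7.63%. Its place depended on the library, with 39.7% of genes lower than rib4 in replicate B and 58.1% lower in replicate A.

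For cts1, 31 premature and 1084 mature counts gave 2.78% in replicate B (1.97 to 3.92), and 13 premature and 574 mature counts gave 2.21% in replicate A (1.30 to 3.75). The intervals overlapped widely, and the mean was 2.50% ± 0.400 (SD, n = 2), with 23.96% of genes lower. In replicate B the intervals of rib4 and cts1 also overlapped slightly, whereas in replicate A they did not. The gap between them was 2.27 percentage points in replicate B and 8.03 points in replicate A. The gap between prs5 and rib4 was 42.3 points in replicate B and 46.4 points in replicate A, a contrast for which the genes were chosen.

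**Figure D2:**
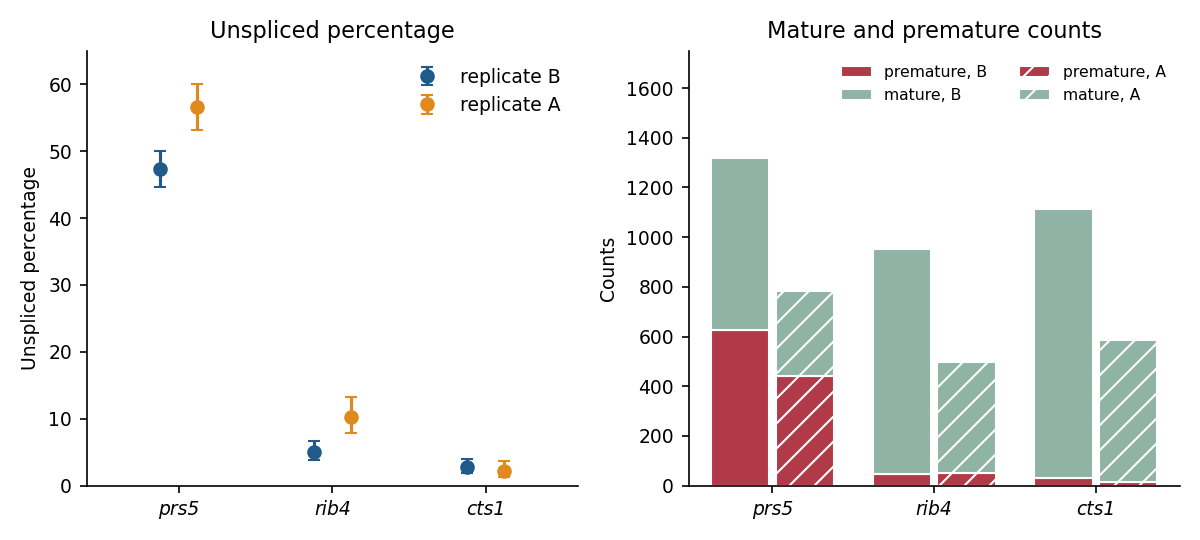
Left, unspliced percentage of prs5, rib4 and cts1 in replicate B and replicate A, with 95% Wilson intervals as bars. Right, the mature and premature counts behind it, where premature counts of prs5 are 625 and 443, those of rib4 48 and 51 and those of cts1 31 and 13 in replicates B and A.

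The libraries differed in depth and in overall splicing. Replicate B held 10009017 exonic, 1194460 mature and 82204 premature counts, and replicate A 5796068, 634306 and 53090. The premature share of all mature and premature counts was 6.44% in replicate B and 7.72% in replicate A, and 525 of the 864 measured genes were lower in replicate B. The median difference per gene was small, at -0.39 percentage points for replicate B minus replicate A.

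Against that background, prs5 and rib4 had lower unspliced percentages in replicate B than in replicate A, by amounts that passed a test against counting noise alone but not one that allowed for overdispersion between the libraries. The cts1 difference passed neither. A two-sided Fisher exact test compared mature and premature counts between the libraries, with Benjamini-Hochberg adjustment over all 864 genes at a threshold of 0.05. For prs5 the difference, replicate B minus replicate A, was -9.30 percentage points (95% interval -13.7 to -4.88), at an adjusted p of 0.00344 by the Fisher exact test. For rib4 it was -5.19 points (-8.41 to -2.35), at an adjusted p of 0.0201 by the same exact test. For cts1 it was 0.57 points (-1.17 to 2.03), at an adjusted p of 0.963 by the exact test. Over all genes, 1.62% were called in either direction, and 1.39% were called as lower in replicate B. The members were chosen with these same counts of both libraries in view, so the p-values and the count of 2 called out of 3 describe these libraries and support nothing further. Allowing for overdispersion between the libraries ended both calls, at adjusted p of 0.121 for prs5 and 0.340 for rib4 with a median-based factor of 1.65. Among the other 110 measured genes with a coding intron over 200 nt, 6 were called.

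The 2 count classes did not contribute alike. Scaled to the exonic totals, the prs5 mature count had a log2 ratio of replicate B over replicate A of 0.25 (95% exact interval 0.06 to 0.44), and its premature count one of -0.29 (-0.47 to -0.11). The median of 756 genes with at least 50 mature counts in each library was -0.10, and that of 212 genes with as many premature counts was -0.24. The prs5 premature ratio was thus close to the median gene, and its mature ratio was above it. The totals of the classes had ratios of 0.12 for mature and -0.16 for premature counts, both inside the prs5 intervals. In rib4 the mature ratio was 0.23 (0.06 to 0.39) and the premature ratio -0.88 (-1.48 to -0.28). Both rib4 intervals left out the median gene. The mature interval held the ratio of the mature totals, whereas the premature interval left out that of the premature totals. In cts1 the mature ratio was 0.13 (-0.02 to 0.28), and the premature ratio of 0.47 had an interval from -0.51 to 1.52, since it rested on 31 and 13 counts.

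**Figure D3:**
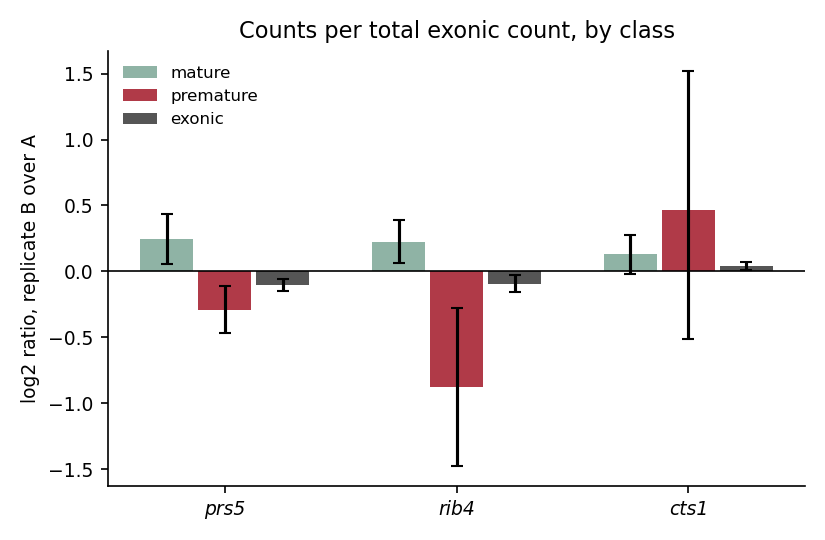
Log2 ratio of replicate B over replicate A for mature, premature and exonic counts of prs5, rib4 and cts1, scaled to the exonic totals, with 95% exact counting intervals as bars. In prs5 and rib4 the mature ratios are 0.25 and 0.23 and the premature ratios -0.29 and -0.88, and in cts1 the premature ratio of 0.47 has an interval that crosses 0.

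The exonic counts, which do not enter the unspliced percentage, differed little between the libraries. They numbered 9897 in replicate B and 6168 in replicate A for prs5, 4942 and 3053 for rib4, and 23211 and 13044 for cts1. Scaled to library totals, the log2 ratios of replicate B over replicate A were -0.11 for prs5, -0.09 for rib4 and 0.04 for cts1, against a median of -0.13 over 1093 genes. Relative to that median they were 0.02, 0.04 and 0.17. All 3 passed the two-sided exact binomial test, with adjusted p of 1.75e-05, 0.0083 and 0.00967, but so did 72.7% of all genes. Passing in either direction thus says nothing particular about them. By direction, 64% of genes were called as lower in replicate B, as prs5 and rib4 were, and 96 of 1093 as higher, as cts1 was. With DESeq2 size factors the sign turned for prs5 (0.02) and rib4 (0.04) and neither passed, whereas cts1 passed at 0.17.

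Setting the spliced and unspliced reads against the exonic counts gave the same order of genes for the premature class. There were 63.2 premature counts per 1000 exonic counts for prs5 in replicate B and 71.8 in replicate A. For rib4 the values were 9.71 in replicate B and 16.7 in replicate A, and for cts1 1.34 and 0.997. Mature counts per 1000 exonic counts were 70.2 and 55.0 for prs5, 183 and 146 for rib4, and 46.7 and 44.0 for cts1, in replicates B and A. The mature yield was thus highest in rib4, and cts1, though the most spliced, had the lowest. Primer positions were not used here, so these yields describe the counts and are not levels of RNA.

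Among genes with long coding introns, the 3 covered both ends of the range. Ranked from the highest mean unspliced percentage among 113 measured genes with a coding intron over 200 nt, prs5 was in place 11, rib4 in place 73 and cts1 in place 100. The other 110 had a median of 11.9%, with quartiles of 5.78% and 24.5% and extremes of 1.04% and 94.6%. Genes nearest in intron length showed how widely introns of like size differ. The nearest to prs5 were cox6, a cytochrome c oxidase subunit gene with an intron of 411 nt, at 5.54% ± 0.596, and the 14-3-3 protein gene rad24, with 407 nt, at 5.44% ± 1.13 (SD, n = 2). As near in length as rad24 was rli1, with 437 nt, at 9.90% ± 0.747, and next at that minimum came nog2, with 404 nt, at 29.9% ± 0.683. With fewer counts, gpa2, with 405 nt, was nearer than nog2 and lay above prs5, at 68.3% ± 6.56. Nearest to rib4 were scs7, a sphingolipid hydroxylase gene, at 11.0% ± 4.86, and the ribosomal protein gene rps502 at 6.44% ± 0.203, both with 288 nt. Nearest to cts1 were the ribosomal protein gene rps1001, with 219 nt, at 1.95% ± 0.113, and the RNA polymerase subunit gene rpb6, with 218 nt, at 3.71% ± 0.163.

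**Figure D4:**
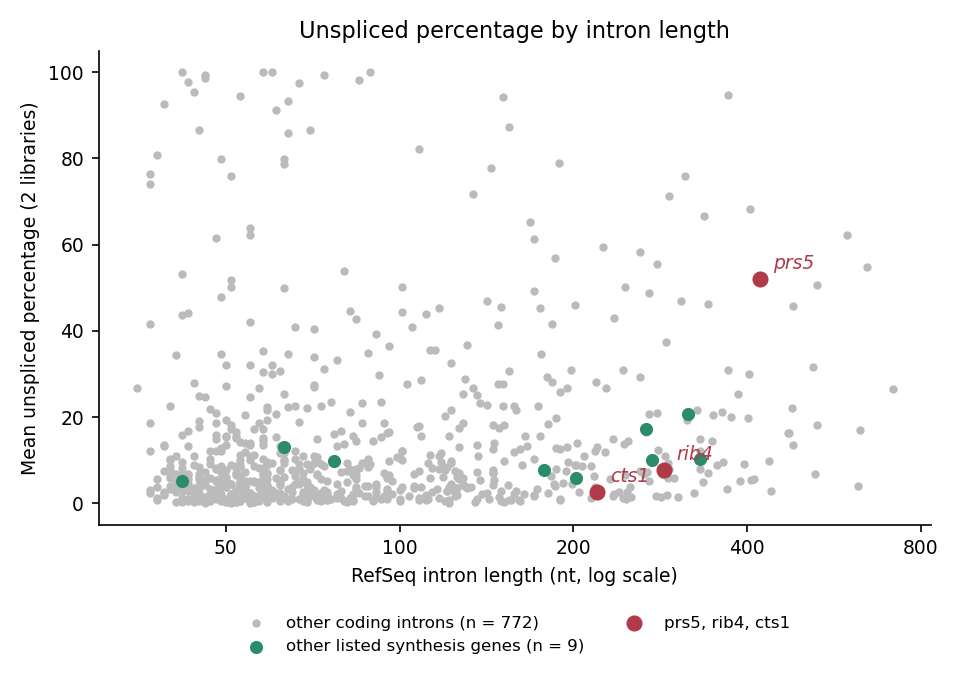
Mean unspliced percentage of 2 libraries against RefSeq intron length on a log scale, for genes with 1 coding intron. The genes prs5, rib4 and cts1 are red, 9 other listed synthesis genes are green and the remaining 772 are grey. Among introns of 404 to 437 nt, prs5 at 52.0% lies above cox6, rad24, rli1 and nog2 and below gpa2 at 68.3%.

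The genes whose unspliced percentages were most like those of each member had shorter introns. RefSeq names none of them as a nucleotide or riboflavin synthesis gene, and its name for new13 gives no function. Most coding introns are shorter too, 98.2% of them than that of prs5, 93.9% than that of rib4 and 89.7% than that of cts1. Likeness was the distance between logits over the 2 libraries, among 406 other genes with at least 200 mature and premature counts in each. Nearest to prs5 were the ribosomal protein gene rpl3002, at 47.96% in replicate B and 52.4% in replicate A with an intron of 246 nt, and new13, at 52.7% and 54.9% with 80 nt. Nearest to rib4 was the cysteine synthase gene cys11, at 5.69% in replicate B and 9.62% in replicate A with an intron of 145 nt. It was lower in replicate B, as rib4 was, a likeness that the measure itself selects for. Nearest to cts1 were the SNARE gene tlg1, at 2.82% and 2.54%, and tom22, a subunit gene of the mitochondrial import complex, at 2.45% and 2.26%.

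The sequence features of the members stood beside modest differences over all coding introns. These are medians over genes, which are not replicates, and no test was made. The median unspliced percentage was 10.1% for introns ending in CAG, as in prs5, and 6.48% for those ending in TAG, as in rib4 and cts1. It was 8.58% for 154 introns with none of the 4 branch-site-like pentamers and 6.85% for 630 with at least 1. For the 129 introns that, like prs5, had none of them but did have TTAAC or TTAAT, it was 7.53%, and for 25 introns with none of the 6 it was 18.6%. By 5′ splice site it was 4.95% for GTATGT (cts1), 8.69% for GTATGA (rib4) and 7.56% for GTAAGA (prs5). Introns overlapped by an annotated gene on the opposite strand, as in prs5 and rib4, had a median of 8.67% over 456 genes, and the others, as in cts1, 5.15% over 328. Among introns over 200 nt these medians were 14.5% over 69 genes and 8.21% over 44. The value of prs5 lay far above every one of these medians and that of cts1 below every one.

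Other genes of nucleotide synthesis and salvage lay between prs5 and cts1, which were chosen in part for their contrasting unspliced percentages. A list of gene symbols and RefSeq product names found 14 further genes in the files, of which 12 had enough counts. Their unspliced percentages ran from 5.10% to 23.7% with a median of 10.2%, and 9 of the 12 lay above the median of all measured genes and 3 below it. All 12 were below prs5 and above cts1 on the mean. Their introns were often long as well: 7 of 12 (58.3%) exceeded 200 nt, compared with 15.4% of 838 measured genes with 1 intron. Of the 12 introns, 3 lay in the 5′ UTR (ura6, ade4 and ade1), unlike the coding introns of the members.

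A second ribose-phosphate pyrophosphokinase gene, SPAC4A8.14, was mostly spliced, unlike prs5. Its coding intron of 42 nt was 4.09% unspliced in replicate B and 6.10% in replicate A, a mean of 5.10% ± 1.42 (SD, n = 2). The enzyme that uses phosphoribosyl pyrophosphate to start purine synthesis, amidophosphoribosyltransferase, is encoded by ade4, at 23.6% ± 1.04 with an intron of 375 nt. Later in that pathway, ade1, which encodes a bifunctional purine synthesis enzyme, was at 5.19% ± 2.01 with 60 nt, and ade9, which encodes a folate enzyme that supplies purine synthesis, at 17.2% ± 5.40 with 267 nt. The guanine nucleotide gene gua1, for IMP dehydrogenase, was at 10.4% ± 0.426 with 332 nt.

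Among pyrimidine genes, ura2, for dihydroorotase, was at 9.85% ± 2.64 with 77 nt. The uridylate kinase gene ura6, whose product phosphorylates UMP on the route to the UTP that Cts1 uses, was at 23.7% ± 5.16 with 353 nt. For making deoxynucleotides, cdc22, the large subunit gene of ribonucleotide reductase, was at 20.8% ± 1.57 with 316 nt, and the dihydrofolate reductase gene dfr1 at 5.77% ± 3.02 with 202 nt. In purine salvage, hpt1 was at 10.1% ± 2.34 with 274 nt, apt1 at 7.82% ± 0.823 with 178 nt and the adenosine deaminase gene ada1 at 13.1% ± 1.68 with 63 nt.

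None of these 12 genes was called as different between the libraries by the Fisher exact test over all genes, and 2 were at an unadjusted p under 0.05 (ura6 and hpt1), where all genes gave 89 of 864. Of the 12, 9 were lower in replicate B, as were prs5 and rib4, and so were 525 of all 864 measured genes (60.8%). In the exonic test 10 of the 12 were called, 7 as lower and 3 as higher in replicate B. Over all genes, 72.7% were called, 64% as lower and 96 of 1093 as higher. The 2 genes left out for low counts were rib7, a riboflavin synthesis gene with 0 mature counts in either library and 2 and 1 premature counts in replicates B and A, and urk1, a uridine salvage gene with sums of 31 and 18. The RefSeq entry of rib7 has no intron of at least 20 nt, so rib4 was the sole riboflavin synthesis gene on the list that could be measured.

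**Figure D5:**
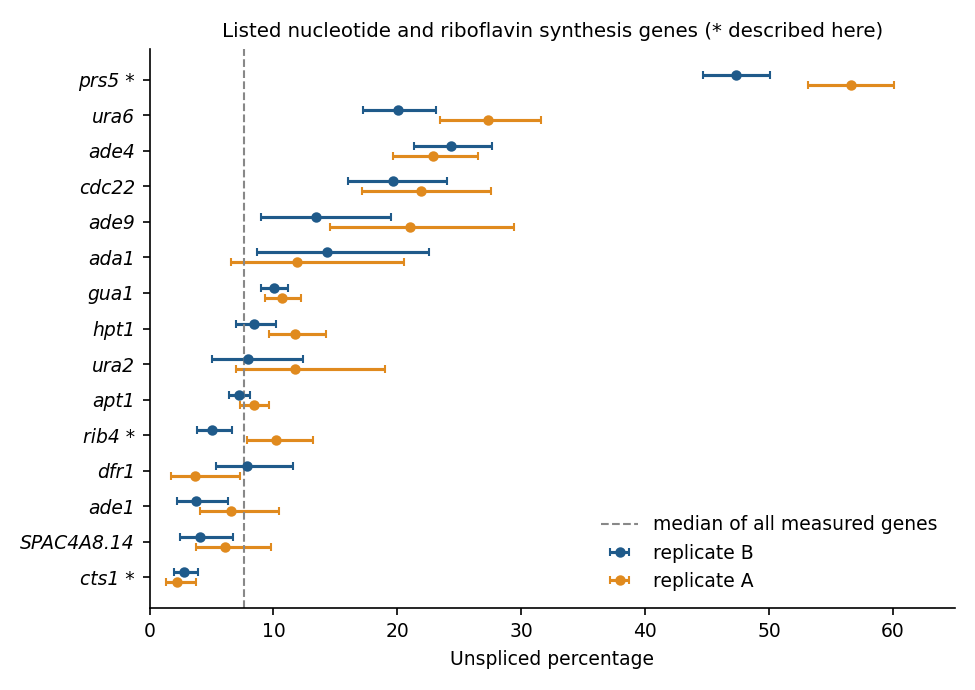
Unspliced percentage of the 15 listed synthesis genes with at least 50 mature and premature counts in each library, in replicates B and A with 95% Wilson intervals, ordered by the mean. The dashed line is the median of all measured genes at 7.63%, and prs5 stands apart at the top with 47.3% and 56.6%. The next gene, ura6, has a mean of 23.7% and its intron in the 5′ UTR.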

How the data were processed

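Per the file headers, the authors deposited raw counts for 1144 genes in 2 wild-type libraries, each gene with an exonic, a mature and a premature count. Trimmomatic 0.35, HISAT2 2.1.0 and HTSeq were used upstream, per the submitters' processing notes, which give them no role or order. Not given in the sources used here are the class definitions, the genome build, the strand setting and any molecular identifiers. The replicate letters come from the sample titles. A minimum of 50 mature and premature counts in each library left out 280 genes. Unspliced percentages were compared between libraries with two-sided Fisher exact tests and exonic counts of at least 50 with two-sided exact binomial tests, each adjusted by Benjamini-Hochberg over all genes tested. Both tests were first run on simulated data with counting noise only, which lacked the overdispersion between these libraries. DESeq2 1.42.0 and edgeR 4.0.16 in R 4.3.3 gave alternative scaling factors and no test. Intervals of differences combined the Wilson bounds of both libraries.

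Introns and sequences came from the RefSeq annotation of ASM294v3, which held 1141 of the 1144 genes, ignoring gaps under 20 nt between exons. Calculations used Python 3.11.15, numpy 2.4.6, scipy 1.17.1, pandas 2.3.3 and matplotlib 3.10.9. The members, lists, tests and named genes were chosen with earlier results of these data known, and the branch-site-like motifs and the opposite-strand overlaps were chosen after the counts were available. The genes named are the 3 members, the measured genes of the pathway list, and for each member the 2 genes nearest in unspliced percentage and the 2 nearest in intron length, with at least 200 counts in each library, of which 1 is not reported here; rli1, nog2, rib7, urk1, ptp4 and mrps17 were added afterwards.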

Additional observations from a re-analysis of the deposited data

How the results depend on the processing

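The unspliced percentages of prs5, rib4 and cts1 moved by less than their SD when the counts of both libraries were summed (50.8%, 6.83% and 2.59%) or when 1 count was added to each class. With a single library they were 47.3% or 56.6% for prs5, 5.05% or 10.2% for rib4 and 2.78% or 2.21% for cts1 (replicate B or A), a spread that 2 libraries cannot judge against their own SD. Scaling the Fisher exact test by the mean overdispersion (4.97) or the median-based one (1.65) left differences at -9.30 points for prs5 and -5.19 for rib4 but ended both calls, at adjusted p of 1 with the mean factor. The number of genes called over all genes was 3 and 7 with these factors, against 14 without scaling and with minimums of 20 or 200 counts. The adjusted p over all 4 alternatives ranged from 0.00163 to 1 for prs5 and from 0.0104 to 1 for rib4.

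In the exonic comparison, DESeq2 size factors gave log2 ratios of 0.024 for prs5 and 0.037 for rib4, and edgeR's TMM factors 0.020 and 0.032, the reverse of the values scaled to library totals. Scaled by the mean overdispersion (40.2), -0.106 for prs5, -0.0933 for rib4 and 0.0433 for cts1 all missed the threshold. Genes called numbered 403 with DESeq2 size factors (254 higher and 149 lower in replicate B), 410 with TMM factors (246 and 164) and 18 with overdispersion, against 795 (96 and 699) with library totals. The median unspliced percentage of coding introns over 200 nt was 11.8% at a minimum of 50, 8.67% at 200, and 10.4% to 11.8% with single libraries. No paired analysis was possible because there is 1 group. The cts1 percentage rests on 31 and 13 premature counts.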
